A study of Mus musculus with 6 samples.

Results

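The integrated stress response is the programme by which cells slow protein synthesis and switch on repair genes when amino acids run short, proteins misfold in the endoplasmic reticulum (ER) or mitochondria fail. Kinases that sense these conditions phosphorylate the initiation factor eIF2, which lowers translation in general but raises translation of the transcription factor ATF4. ATF4 then acts on genes of amino acid synthesis and uptake and, together with CHOP (the product of Ddit3), on stress-limiting and death-promoting genes. Embryonic stem cells divide fast, and genes of serine synthesis, which supplies such growth, are among the known ATF4 targets.

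The 10 genes described here are listed ATF4 and CHOP response genes, all 10 of which had a probe set of their own among 19938 genes measured. They comprise the transcription factor genes Atf4, Ddit3 and Atf3, the feedback gene Trib3 and Chac1, which encodes a glutathione-degrading enzyme. The others are the cystine transporter gene Slc7a11 and the biosynthetic genes Asns, Psat1, Phgdh and Pck2. They were chosen by a rule that used measured values, namely the change with doxycycline (dox) in the line with Pcgf6 hairpin 2 against the lines with hairpin 1 and with a scrambled hairpin. Those changes are therefore given as a description without a test.

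The study comprised 6 samples of V6.5 cells, a mouse embryonic stem cell line, and each was measured on a GeneChip Mouse Gene 1.0 ST array. There were 3 lines, called shRNA2, shRNA1 and Scrambled as in the labels, and each gave 1 array with dox at 1 µg/ml and 1 array without dox. The arrays fall into 4 groups: induced Pcgf6 hairpins (shRNA2+dox and shRNA1+dox, n = 2), uninduced Pcgf6 hairpins (shRNA2-dox and shRNA1-dox, n = 2), induced scrambled hairpin (Scrambled+dox, n = 1) and uninduced scrambled hairpin (Scrambled-dox, n = 1). Every line carried a hairpin switched on by dox, and all were grown on inactivated mouse embryo fibroblasts with leukaemia inhibitory factor, non-essential amino acids and 2-mercaptoethanol in the medium, per the labels' protocols. The sources used here do not say how long dox was applied or whether a line came from a single clone.

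Values are log2 expression after RMA, and with 6 arrays their precision is low. Pcgf6 itself, the polycomb gene targeted by hairpins 1 and 2, differed with dox by -2.44 in the shRNA2 line, -2.17 in the shRNA1 line and 0.02 in the Scrambled line on the log2 scale. The 11 embryonic stem cell markers measured lay between 10.30 and 13.10 on every array, well above the array medians of 7.02 to 7.08. Markers of the feeder fibroblasts were also measured, 18 of 20 of them above the median of all genes on every array. In bulk RNA, fewer cells of a type and less RNA per cell cannot be told apart.

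The promoter stretches that bear on these genes are shown first, because ATF4 and its partners are known to act through a short composite element. The 250 bases before the RefSeq start (GRCm38.p6) were searched on both strands for TGATGNAA, the core of the ATF4 composite element, and for the ER stress element, CCAAT followed after 9 bases by CCACG, which the ER stress factor ATF6 is known to bind together with NF-Y, a general CCAAT-binding factor. All 10 genes matched the RefSeq promoter table, with 11 windows since Psat1 has several starts. Capitals mark matches to TGATGNAA. Ddit3, Atf3 and Slc7a11 are shown because they differed most with dox in the shRNA2 line, Asns because it holds a match and differed little there, and Herpud1, an ER protein degradation gene outside the list, because its values ran alongside those of Ddit3.

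Ddit3 (chr10:127290543-127290792, plus strand): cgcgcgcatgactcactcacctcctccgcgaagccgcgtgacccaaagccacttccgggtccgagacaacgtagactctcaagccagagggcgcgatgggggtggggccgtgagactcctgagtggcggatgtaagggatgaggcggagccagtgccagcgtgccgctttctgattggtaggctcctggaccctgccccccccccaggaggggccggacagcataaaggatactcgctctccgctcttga

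Atf3 (chr1:191183334-191183583, minus strand): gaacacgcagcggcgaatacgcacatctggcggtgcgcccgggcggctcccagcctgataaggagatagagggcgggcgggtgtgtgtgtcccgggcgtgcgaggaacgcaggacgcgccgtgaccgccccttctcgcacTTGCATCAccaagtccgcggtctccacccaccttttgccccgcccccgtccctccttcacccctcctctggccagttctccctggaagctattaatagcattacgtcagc

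Slc7a11 (chr3:50443614-50443863, minus strand): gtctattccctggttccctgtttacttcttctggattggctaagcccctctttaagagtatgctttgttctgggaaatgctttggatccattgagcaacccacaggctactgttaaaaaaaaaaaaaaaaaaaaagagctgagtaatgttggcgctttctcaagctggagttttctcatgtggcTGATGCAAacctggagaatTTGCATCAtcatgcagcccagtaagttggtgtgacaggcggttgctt

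Asns (chr6:7693210-7693459, minus strand): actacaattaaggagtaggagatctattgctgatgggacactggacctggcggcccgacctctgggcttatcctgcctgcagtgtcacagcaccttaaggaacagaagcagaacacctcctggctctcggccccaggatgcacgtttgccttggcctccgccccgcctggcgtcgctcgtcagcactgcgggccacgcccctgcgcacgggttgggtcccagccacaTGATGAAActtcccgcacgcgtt

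Herpud1 (chr8:94386179-94386428, plus strand): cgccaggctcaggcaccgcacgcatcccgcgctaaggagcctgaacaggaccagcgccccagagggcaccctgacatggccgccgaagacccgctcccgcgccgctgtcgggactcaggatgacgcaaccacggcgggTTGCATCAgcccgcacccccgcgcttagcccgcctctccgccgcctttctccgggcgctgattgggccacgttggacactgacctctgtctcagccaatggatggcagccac

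TGATGNAA was present in the windows of 5 of the 10 genes, Atf3, Chac1, Slc7a11, Asns and Pck2, and in 3.45% of all 32851 promoter windows. Slc7a11 held a match on each strand, from 66 to 59 and from 47 to 40 bases before the start. The ER stress element was in none of the windows of the 10 genes, in those of 8 of the 18 ER genes found in the table and in 0.113% of all windows. A match describes these letters only. Bases outside the windows and other spacings of the ER stress element were not searched, so the lack of a match, as in Ddit3, holds for these windows and patterns alone.

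Ddit3, which encodes CHOP, showed the greatest difference between arrays among the 10 genes. Its level in the shRNA2 line was 9.43 with dox and 7.84 without, which is 1.59 higher on the log2 scale or 3.01-fold. In the shRNA1 line it measured 8.94 with dox and 8.95 without, and in the Scrambled line 8.73 with dox and 8.64 without. The shRNA2 arrays were thus the highest and the lowest of the 6, with the other 4 arrays between them. Set against the mean of shRNA1 and Scrambled, the shRNA2 array was higher by 0.60 with dox, and without dox it differed by -0.96. The larger share of the shRNA2 difference in Ddit3 therefore lay in a low uninduced array.

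Slc7a11, which encodes the cystine importer that feeds glutathione synthesis, had a level of 8.19 with dox and 7.26 without in the shRNA2 line, which is 0.93 higher or 1.90-fold. It measured 7.88 with dox and 7.60 without in the shRNA1 line, and 7.28 with dox and 7.34 without in the Scrambled line. Both induced Pcgf6 hairpin arrays were above the other 4 arrays, and shRNA2 without dox was the lowest array.

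Atf3, a stress-induced transcription factor that binds the same kind of sites as ATF4, had a level of 10.02 with dox and 9.23 without in the shRNA2 line, which is 0.80 higher or 1.74-fold. The shRNA1 line gave 9.35 with dox and 9.34 without, and the Scrambled line 9.54 with dox and 9.29 without. Here the shRNA2 array with dox stood above the other 5 and the uninduced arrays lay close together. For Atf3 the shRNA2 array was above the mean of the other lines by 0.57 with dox and differed by -0.09 without. The same values for Slc7a11 were 0.62 with dox and -0.21 without.

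**Figure D1:**
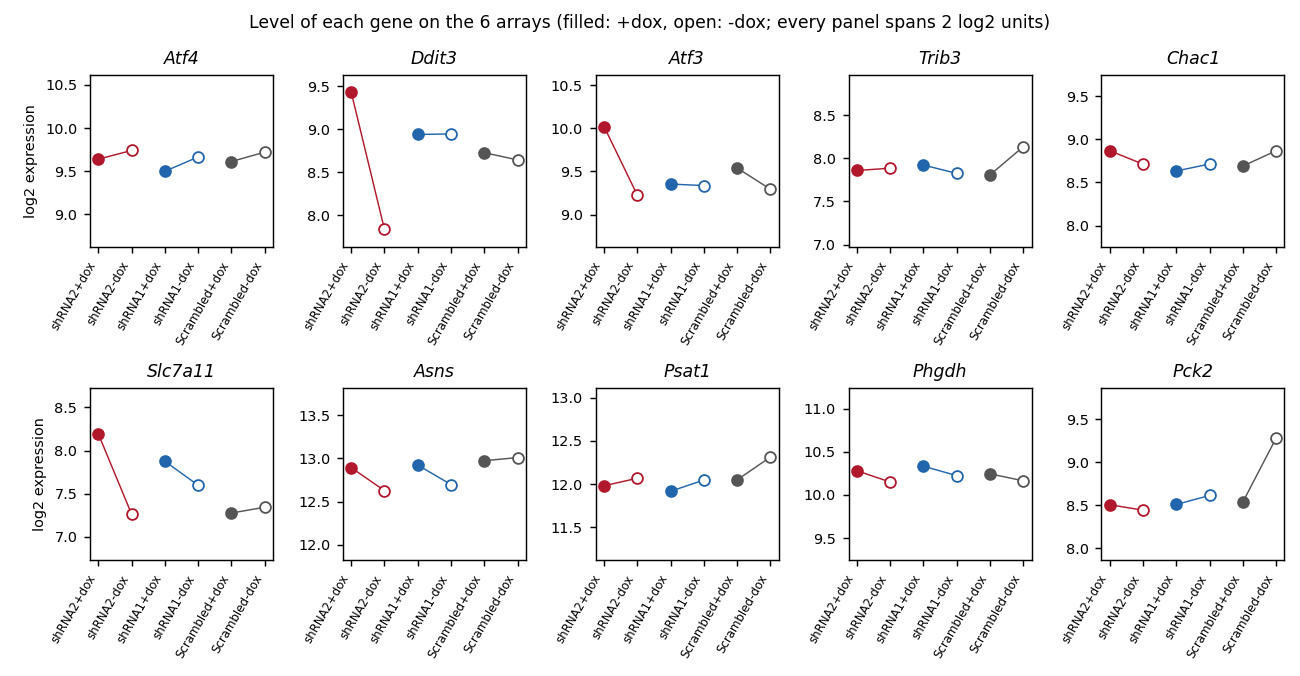
Each panel shows the log2 expression of 1 gene on the 6 arrays, filled points with dox and open points without, joined by line (red shRNA2, blue shRNA1, grey Scrambled). Ddit3, Atf3 and Slc7a11 have their highest value in shRNA2 with dox and their lowest in shRNA2 without dox, and Pck2 stands out in Scrambled without dox at 9.28.

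The transcript of Atf4, the central factor of the response, did not share this pattern. It measured 9.64 with dox and 9.74 without in the shRNA2 line, 9.50 with dox and 9.66 without in the shRNA1 line, and 9.61 with dox and 9.72 without in the Scrambled line. The Atf4 array with dox was the lower in each of the 3 lines, the differences lay between -0.165 and -0.101, and the 6 arrays spanned 0.24. Control of ATF4 is known to lie largely in translation, which these arrays do not read.

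Trib3, a pseudokinase gene that CHOP and ATF4 switch on and that dampens the response, measured 7.86 with dox and 7.89 without in the shRNA2 line. It measured 7.92 with dox and 7.83 without in the shRNA1 line, and 7.81 with dox and 8.13 without in the Scrambled line. The uninduced Scrambled array was the highest of the 6. Chac1, which encodes a glutathione-degrading enzyme and is a CHOP-pathway target, measured 8.87 with dox and 8.71 without in the shRNA2 line, 8.63 with dox and 8.71 without in the shRNA1 line, and 8.69 with dox and 8.87 without in the Scrambled line. The differences with dox of Chac1 lay between -0.18 and 0.16, and its 6 arrays spanned 0.23.

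Among the biosynthetic genes, Asns, which encodes asparagine synthetase, measured 12.89 with dox and 12.63 without in the shRNA2 line and 12.92 with dox and 12.70 without in the shRNA1 line. In the Scrambled line it measured 12.97 with dox and 13.01 without. Asns was higher with dox by 0.27 and 0.23 in the shRNA2 and shRNA1 lines and differed by -0.04 in Scrambled, so its values in the hairpin lines were close to each other.

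Psat1, the transaminase gene of serine synthesis, measured 11.98 with dox and 12.07 without in the shRNA2 line, 11.92 with dox and 12.05 without in the shRNA1 line, and 12.05 with dox and 12.31 without in the Scrambled line. Phgdh, whose product commits glycolytic carbon to serine, differed with dox by 0.13, 0.11 and 0.08 in the shRNA2, shRNA1 and Scrambled lines, and its levels lay between 10.15 and 10.33. A probe set that Phgdh shares with another symbol gave 0.12, 0.04 and -0.20 in these lines. Neither gene set the shRNA2 line apart.

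Pck2, the mitochondrial enzyme gene that makes phosphoenolpyruvate, measured 8.51 with dox and 8.44 without in the shRNA2 line and 8.51 with dox and 8.61 without in the shRNA1 line. In the Scrambled line it measured 8.54 with dox and 9.28 without. A single array, Scrambled without dox, thus stood apart from the other 5, which lay between 8.44 and 8.61, and the Scrambled difference was -0.74, or 1.67-fold lower with dox.

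At a threshold of 1.5-fold, 3 of the 10 genes were higher with dox in the shRNA2 line, against 2.17% of all genes, and 0 were lower, against 0.446% of all genes. In the shRNA1 line 0 were higher and 0 lower, against 0.627% and 0.241% of all genes. In the Scrambled line 0 were higher and 1 was lower, Pck2, against 1.48% and 0.211% of all genes. Both hairpin lines were higher with dox and Scrambled lower, whatever the size, for 2 of the 10, Asns and Slc7a11, against 11.4% of all genes. Because the choice of genes used these changes, nothing is read from the counts. The gap between the gene just past the threshold, Atf3 at 0.80, and the next, Asns at 0.27, was wide.

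**Figure D2:**
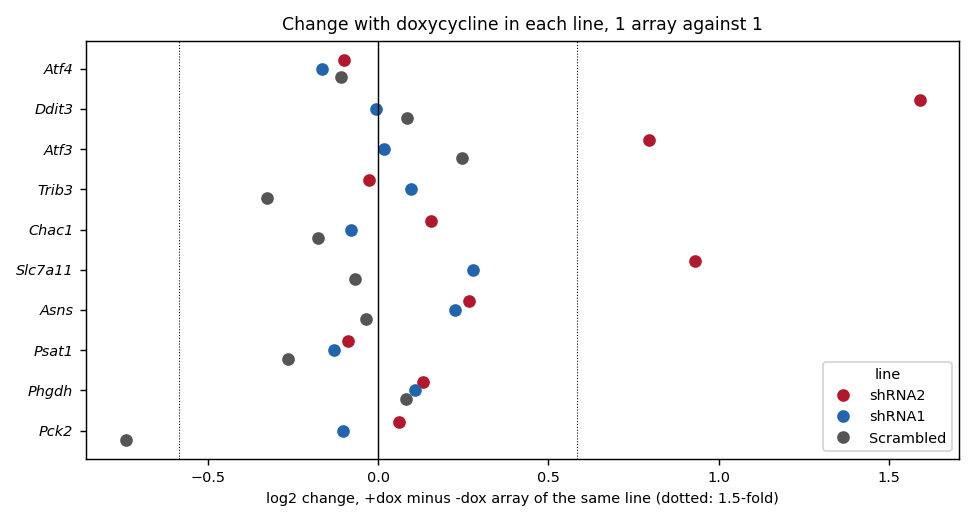
Points give the log2 change with dox (array with dox minus array without) of each gene in the shRNA2 (red), shRNA1 (blue) and Scrambled (grey) lines, with dotted lines at 1.5-fold. Ddit3, Slc7a11 and Atf3 lie past 1.5-fold in shRNA2, and Pck2 lies past it in Scrambled, at -0.74.

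Over all 10 genes the median change was 0.14 in the shRNA2 line, 0.01 in the shRNA1 line and -0.09 in the Scrambled line. Over all 19938 genes the medians were -0.02, 0.00 and -0.01. The shRNA2 change was larger than both other changes for 9 of the 10 genes, all but Trib3, against 31.5% of all genes. Among the 128 measured genes of the other response lists described below, that share was 64.8%. Taking the shRNA2 change minus the mean of the other changes, the value was above 0 for 10 of 10, against 48.5% of all genes, and the median over the 10 genes was 0.23, against -0.01 over all genes. By this measure 3 genes were at least 1.5-fold higher, where 0.958% of all genes were, and 0 at least 1.5-fold lower, where 0.381% were. The value was 1.55 for Ddit3, 0.82 for Slc7a11 and 0.66 for Atf3, 0.49 for Pck2 and between 0.04 and 0.28 for the other 6. For Pck2 it was 0.17 against shRNA1 alone and 0.80 against Scrambled alone, and for Trib3 -0.12 against shRNA1 alone and 0.30 against Scrambled alone. After quantile normalization of the arrays the value for Atf4 was -0.0008, so the count above 0 depends on the setting.

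**Figure D3:**
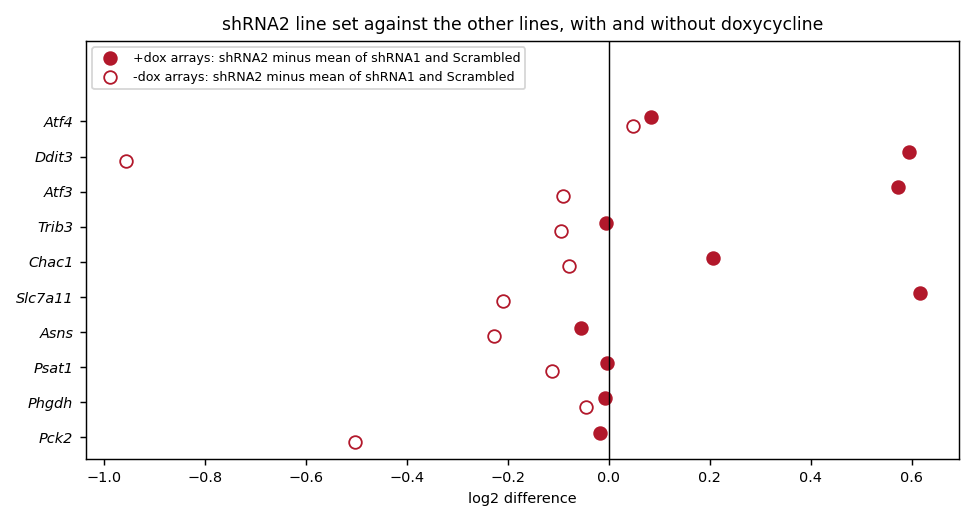
The shRNA2 line minus the mean of the shRNA1 and Scrambled lines is plotted on the log2 scale for arrays with dox (filled) and without dox (open). Ddit3 lies at 0.60 with dox and -0.96 without, Atf3 and Slc7a11 differ mainly with dox, and Pck2 lies at -0.02 with dox and -0.50 without.

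By array, shRNA2 with dox was the highest of the 6 for 4 of the 10 genes (Ddit3, Atf3, Slc7a11 and, all but tied with uninduced Scrambled, Chac1), against 18.3% of all genes, and shRNA2 without dox was the lowest for 6, against 15.5% of all genes. Scrambled without dox was the highest for 4, Trib3, Asns, Psat1 and Pck2, against 22.3% of all genes. These orders come from the same arrays as the choice of genes. Ddit3, Atf3 and Slc7a11, grouped here after their values were seen, had both their highest and their lowest array in the shRNA2 line, and Trib3, Asns, Psat1 and Pck2 had their highest value in uninduced Scrambled cells.

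Tested over the Pcgf6 hairpins together (induced against uninduced, n = 2 against 2), 0 of the 10 genes passed an adjusted p of 0.05 by limma, against 0.201% of all genes, and 2 had an unadjusted p under 0.05, against 8.75% of all genes. Since the rule used these arrays, this too is only a description, and as nothing states that the samples were separate cultures, the p-values reflect the scatter of these arrays alone, part or all of which may be technical. Slc7a11 averaged 8.03 ± 0.22 in induced and 7.43 ± 0.24 in uninduced hairpin cells (SD, n = 2 each), a difference of 0.60 (SE 0.15, limma adjusted p = 0.384). Asns averaged 12.91 ± 0.02 in induced and 12.66 ± 0.05 in uninduced hairpin cells (SD, n = 2 each), a difference of 0.25 (SE 0.08, limma adjusted p = 0.522). Ddit3 averaged 9.18 ± 0.35 in induced and 8.39 ± 0.78 in uninduced hairpin cells (SD, n = 2 each), a difference of 0.79 (SE 0.35, limma adjusted p = 0.594). For Ddit3 the spread between the uninduced hairpin arrays (SD 0.78) was about as large as the difference. That difference was 0.24 without the uninduced shRNA2 array and 1.35 without the uninduced shRNA1 array. For Atf3 the difference was 0.41, and it was 0.07 without the induced shRNA2 array and 0.74 without the induced shRNA1 array.

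A second comparison set uninduced Pcgf6 hairpin cells against uninduced Scrambled cells (n = 2 against 1), which addresses the lines before induction. The genes were not chosen on this difference itself, but its arrays also enter the changes used for the choice. A low uninduced shRNA2 array or a high uninduced Scrambled array raises a gene in that choice and lowers this difference. Values below 0 are thereby favoured, so the counts here are a description only. Pck2 averaged 8.53 ± 0.12 in the hairpin cells (SD, n = 2) and measured 9.28 in Scrambled, a difference of -0.75 (SE 0.12, limma adjusted p = 0.245), or 1.68-fold. Asns differed by -0.35 (SE 0.10, limma adjusted p = 0.447), Trib3 by -0.28 (SE 0.10, adjusted p = 0.568) and Psat1 by -0.26 (SE 0.10, adjusted p = 0.605). Ddit3, Atf3, Atf4, Slc7a11, Chac1 and Phgdh differed by -0.25 to 0.09, with limma adjusted p of 0.834 or more. For Ddit3 the difference of -0.25 was 0.30 without the uninduced shRNA2 array and -0.81 without the uninduced shRNA1 array. In this comparison the feeder fibroblast markers differed by a median of 0.84, and 17 of 20 had an unadjusted limma p under 0.05; their part in the values of the 10 genes was not tested. By limma 0 of the 10 genes passed, against 0% of all genes, and 4 had an unadjusted p under 0.05, against 8.06% of all genes. The Scrambled group is a single array, and the test assumes that it varies like the hairpin groups. With the hairpin line as a replicate block, a fit whose error leaves out the spread between hairpins, 0 of the 10 and 17 of all 19938 genes passed, and Pck2 had the lowest limma adjusted p of the 10, 0.0961.

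Genes of the wider response were then set beside these 10. Their lists were written with earlier results of these data known, so their counts are a description only. The ER chaperone and unfolded protein response list, mostly genes that ATF6 and XBP1 switch on when proteins misfold in the ER, held 21 genes. It includes Xbp1, Atf6 and Ern1 themselves, and all 21 were measured. In the shRNA2 line all 21 were above 0 with dox, against 45.8% of all genes, and the median change was 0.49. There, 8 were at least 1.5-fold higher, against 2.17% of all genes. In the shRNA1 line 16 were above 0, against 50.4% of all genes, 0 were past 1.5-fold and the median was 0.03. In the Scrambled line 16 were above 0, against 46.5% of all genes, 0 were past 1.5-fold and the median was 0.10.

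Herpud1, which acts in ER-associated degradation, had a level of 11.11 with dox and 10.20 without in the shRNA2 line, 10.67 with dox and 10.70 without in the shRNA1 line, and 10.45 with dox and 10.57 without in the Scrambled line. Its differences with dox were 0.91, -0.03 and -0.12, and the shRNA2 arrays were the highest and the lowest. Sel1l, an adaptor of the same pathway, measured 1.15, 0.09 and 0.34 in the shRNA2, shRNA1 and Scrambled lines. Dnajb9, a co-chaperone of the ER lumen, measured 0.86, 0.02 and 0.15. Hspa5, the main ER chaperone, named here after its values were seen, measured 0.60, 0.04 and 0.10.

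As with Ddit3, the shRNA2 arrays lay at both ends for the ER list. The array with dox was the highest of the 6 for 20 of 21 genes and the array without dox was the lowest for 16 of 21, where 18.3% and 15.5% of all genes showed these orders. The median over the ER list was 0.25 above the other lines with dox and -0.18 relative to them without dox. None of the 21 passed limma in either tested comparison, where 0.201% and 0% of all genes did. At an unadjusted limma p under 0.05 there were 5 and 0 of them, against 8.75% and 8.06% of all genes. The shRNA2 values rest on 1 array each.

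Genes of amino acid supply showed smaller differences. Of 16 measured tRNA synthetase genes 0 were past 1.5-fold in any line, and the medians were 0.03, -0.04 and -0.18 in the shRNA2, shRNA1 and Scrambled lines. Of all genes, 2.17%, 0.627% and 1.48% were that much higher in these lines, and 0.446%, 0.241% and 0.211% lower. In a list this small a count of 0 is near those shares, and the same holds for the lists below. The shRNA2 change was above both others for 13 of 16, against 31.5% of all genes. Their highest array was Scrambled without dox for 13 of 16, against 22.3% of all genes. Lower in both uninduced hairpin arrays than in uninduced Scrambled were 15 of 16, against 34.1% of all genes. In the shRNA2, shRNA1 and Scrambled lines Mars1 measured 0.14, -0.09 and -0.29, Tars 0.10, 0.015 and -0.31, and Eprs 0.14, -0.04 and -0.15. The lowest Scrambled value of the list was that of Cars, -0.40.

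Of 14 measured enzymes of serine, glycine, proline and one-carbon metabolism, 1 was past 1.5-fold in the shRNA2 line, on the higher side. Of all genes, 2.17% were that much higher there. It was the mitochondrial folate enzyme gene Aldh1l2, at 0.68, -0.19 and -0.04 in the shRNA2, shRNA1 and Scrambled lines. The last enzyme gene of serine synthesis, Psph, measured -0.11, -0.11 and -0.73 in these lines, and Aldh18a1 of proline synthesis 0.25, -0.14 and -0.40. For 10 of the 14, uninduced Scrambled cells gave the highest value, against 22.3% of all genes. Medians were -0.07, -0.12 and -0.15.

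Among 19 other ATF4 targets and partner factors, 0 were past 1.5-fold in either hairpin line, and medians were 0.11, 0.01 and -0.03 in the shRNA2, shRNA1 and Scrambled lines. The alanine transaminase gene Gpt2 measured 0.21, 0.11 and -0.81, so that, like Pck2, it stood out in the Scrambled line. Nupr1 measured 0.37, 0.03 and -0.16. Between uninduced hairpin and uninduced Scrambled cells Gpt2 differed by -0.73 (SE 0.10, limma adjusted p = 0.245).

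The 13 amino acid transporter genes had 0 past 1.5-fold in any line and medians of 0.11, -0.05 and -0.05. For 8 of the 13 shRNA2 without dox was the lowest array and for 2 shRNA2 with dox was the highest, against 15.5% and 18.3% of all genes. The shRNA2 change was above both others for 10, against 31.5% of all genes. The glycine transporter gene Slc6a9 measured 0.40, -0.10 and -0.22. A further list held eIF2 kinases, eIF2 subunits and exchange factors, their regulators and Nfe2l2, the gene of NRF2. Of these, 15 were measured and 0 were past 1.5-fold, with medians of -0.01, 0.02 and 0.02. Ppp1r15a, which encodes the stress-induced subunit that returns eIF2 to its active form, measured 0.42, 0.05 and 0.09.

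The 11 NRF2 antioxidant genes, a list to which Slc7a11 could also be assigned, had 0 past 1.5-fold and a median of 0.00 in the shRNA2 line, -0.01 in shRNA1 and -0.04 in Scrambled. Hmox1 measured 0.15, -0.09 and -0.22. The 11 p53 target genes and 9 mitochondrial stress genes likewise had 0 past 1.5-fold in any line, with shRNA2 medians of 0.10 and 0.07. By limma 0 genes of these 9 lists passed in either tested comparison, where 0.201% and 0% of all genes did. At an unadjusted limma p under 0.05 there were 13 and 11 of their genes, or 10.2% and 8.59%, against 8.75% and 8.06% of all genes.

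**Figure D4:**
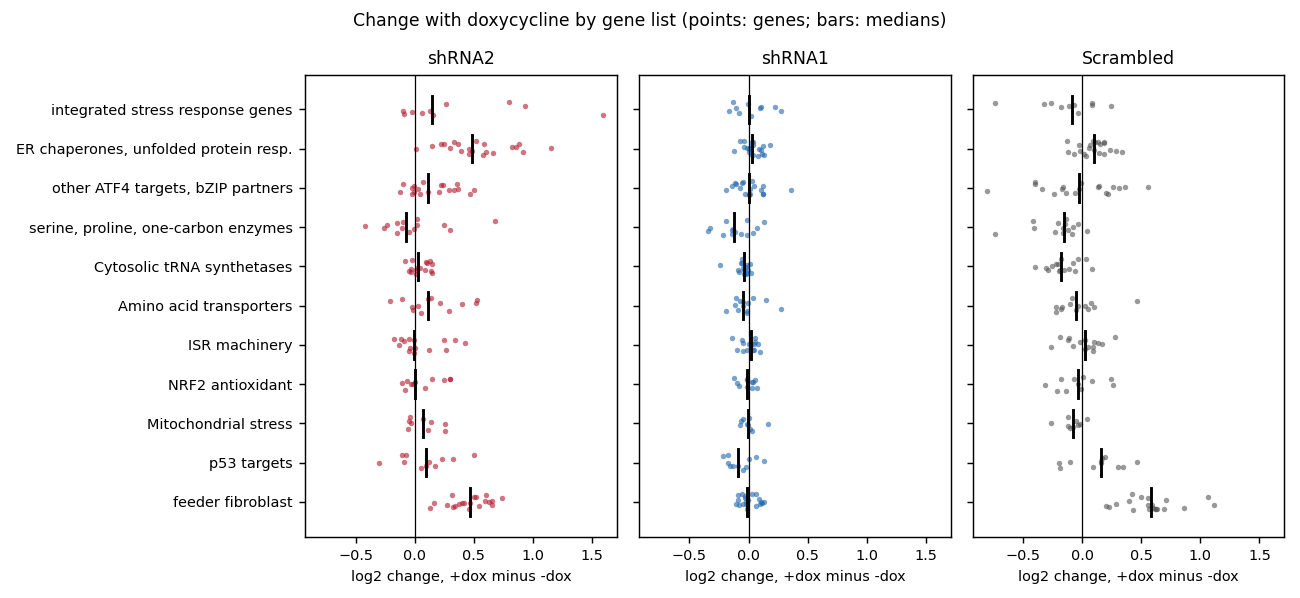
Points give the log2 change with dox of each gene of a list in the shRNA2 (left), shRNA1 (middle) and Scrambled (right) lines, and black bars give medians. The ER list has a median of 0.49 in shRNA2 and 0.03 and 0.10 in the other lines, and feeder fibroblast markers have medians of 0.46 in shRNA2 and 0.58 in Scrambled.

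Feeder fibroblast markers differed between the same arrays. Of 20 measured fibroblast markers, 20 were above 0 with dox in the shRNA2 line (median 0.46), 8 in the shRNA1 line (median -0.02) and 20 in the Scrambled line (median 0.58), where 45.8%, 50.4% and 46.5% of all genes were. At least 1.5-fold higher were 6 in the shRNA2 line, 0 in shRNA1 and 10 in Scrambled, against 2.17%, 0.627% and 1.48% of all genes. Their mean level was 10.36 with dox and 9.91 without in the shRNA2 line, 10.02 with dox and 10.01 without in the shRNA1 line, and 9.68 with dox and 9.10 without in the Scrambled line. In the Scrambled line Ddit3, Atf3 and Slc7a11 measured 0.08, 0.25 and -0.07 and the ER list had a median of 0.10.

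The highest array was shRNA2 with dox for 16 of the 20 feeder markers, against 18.3% of all genes. It was also the highest for Ddit3, Atf3 and Slc7a11. All 20 feeder markers had their lowest value in Scrambled without dox, and Ddit3, Atf3 and Slc7a11 in shRNA2 without dox. Scrambled without dox, the array with the lowest feeder level, was also the highest for Pck2, Trib3, Asns and Psat1. The part of feeder RNA in the values of the 10 genes and of the ER list was not tested. The embryonic stem cell markers had medians of -0.11, 0.00 and -0.08 in the shRNA2, shRNA1 and Scrambled lines.

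**Figure D5:**
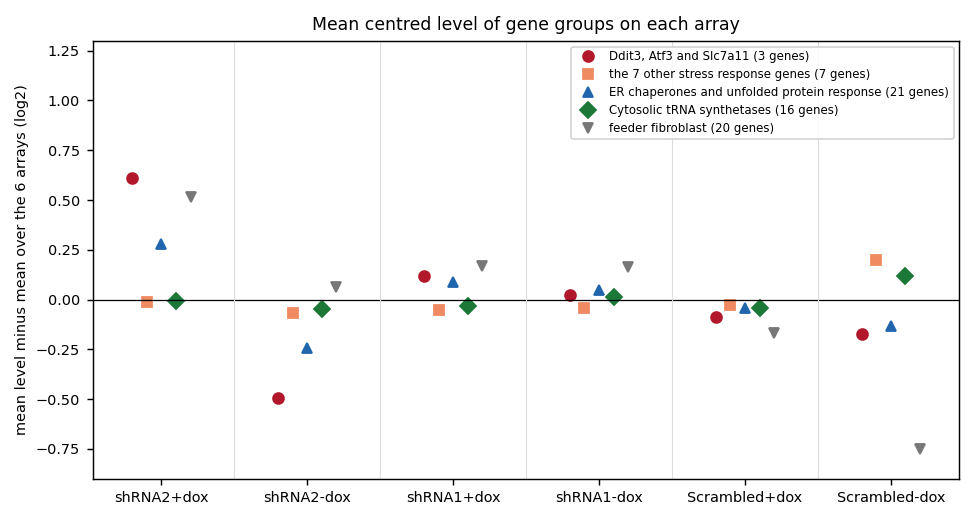
The mean level of each gene group, minus its mean over the 6 arrays, is plotted on the log2 scale for each array. Ddit3, Atf3 and Slc7a11 lie at 0.61 in shRNA2 with dox and -0.49 in shRNA2 without, the ER list at 0.28 and -0.24, and the other 7 stress response genes and the tRNA synthetases have their highest point in Scrambled without dox, where feeder markers are lowest at -0.75.

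The genes most like the 10 were sought among 490 genes that differed at least 1.5-fold in the shRNA2 line, by Pearson correlation of centred values over the 6 arrays with the mean profile of the 10. The highest were Hexa (0.99), a lysosomal hexosaminidase gene, Krcc1 (0.95), Snx29 (0.95), Rnf157 (0.95), Zfp677 (0.90), Gprc5a (0.90), Rhbdd1 (0.90), an ER rhomboid protease gene, and Herpud1 (0.90). In the shRNA2, shRNA1 and Scrambled lines Hexa measured 0.62, 0.01 and -0.15. The 6 points are shared by all genes, and the mean profile lay closest to Ddit3 (0.86) and, among the 10, was opposed by Atf4 (-0.22), so the correlations only describe these arrays. Both the 490 genes and the 10 were selected with the shRNA2 change, so high correlations were in part built in. Of the 490, 22 reached at least 0.8.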

How the data were processed

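The authors deposited log2 expression values per probe set after RMA with Affymetrix Power Tools, per the submitters' processing notes. The genome build and software versions are not given in the sources used here. RMA puts the arrays on a common distribution, so shifts shared by most genes are lost. The values of 35556 probe sets on 6 arrays ran from 2.28 to 14.27, and array medians from 7.02 to 7.08.

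From these values, 21789 probe sets with 1 gene symbol in the platform annotation were kept, of which 21698 matched RefSeq genes of GRCm38.p6. Probe sets with several symbols (1621) or none (12146) were left out, and each gene was read from its probe set with the highest mean, giving 19938 genes. Groups follow the treatment labels. The change with dox was the array with dox minus the array without dox of 1 line, with no test, and 1.5-fold served as threshold. The group comparisons were fitted with limma 3.58.1 in R 4.3.3, 1 mean per group over 4 groups, two-sided, with Benjamini-Hochberg adjustment over all 19938 genes at 0.05, leaving 2 residual degrees of freedom. The limma script was tested on simulated data. Other steps used Python 3.11.15, pandas 2.3.3 and numpy 2.4.6.

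The members and gene lists were chosen with earlier results of these data known. The text names the 10 genes, Pcgf6, up to 3 genes per other list with the greatest shRNA2 difference relative to the other lines, and the 8 genes most correlated with the mean of the 10, skipping predicted models, microRNA and chemoreceptor genes. Some listed genes, among them Eif2s1, Gdf15, Pycr1, Aars1, G6pdx, Cdkn1a, Bax and Fbn1, were not analysed here. The arrays of 1 hairpin line pair across dox conditions because they come from the same line, and their deviations from the group means correlated at 0.181 over genes, which are not independent replicates. Array values were nowhere near identical between samples, with at most 0.0984% of probe sets equal in a pair. Alternatives covered scaling, probe set choice, a filter on dim genes, the replicate block, an intensity trend, the fold threshold, the lines used as comparison and leaving out each array. Promoter stretches are from RefSeq, GRCm38.p6.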

Additional observations from a re-analysis of the deposited data

Results flagged for a closer look

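Asns and Slc7a11 were singled out because both Pcgf6 hairpin lines were higher with dox while the Scrambled line was lower, a difference that was not tested. The mean difference with dox of both hairpin lines minus that of Scrambled was 0.67 for Slc7a11 and 0.28 for Asns on the log2 scale. The same signs occurred in 11.4% of all genes, and each Scrambled value rests on 1 array per condition. For Asns the Scrambled difference was -0.04 and for Slc7a11 it was -0.07.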

How the results depend on the processing

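Of 367 recomputed values, 360 kept their side of the test's threshold or, without a test, stayed within the replicate spread or 1.5 times the count, and 7 moved. Part of this agreement was fixed in advance. None of the 10 genes had a further probe set with 1 symbol and none was dim, so those settings repeated their log2 differences. Leaving out a Scrambled array cannot alter the difference between induced and uninduced hairpins. At 2-fold, 1 of the 10 genes was higher with dox in the shRNA2 line, and 0 were lower in the Scrambled line. At a threshold below 1.5-fold, just low enough to take in the Scrambled difference of Trib3 beside that of Pck2, 2 were lower in the Scrambled line. The other 4 moved values are those of Pck2 and Trib3 against a single comparison line, given above. The shRNA2 difference relative to the other lines ranged over the alternatives from 1.507 to 1.597 for Ddit3, 0.55 to 0.78 for Atf3 and 0.65 to 1.00 for Slc7a11. By limma 0 of the 10 genes passed in either comparison under every alternative run, the replicate block (paired by hairpin line) included, and 0 with each array left out in turn. Of 230 recomputed differences of single genes, none past the threshold, 10 changed sign; Ddit3 in uninduced hairpins against uninduced Scrambled moved most, to 0.30 without the uninduced shRNA2 array. Without 1 array Ddit3 ranged from 0.24 to 1.35 and Atf3 from 0.07 to 0.74 for induced against uninduced hairpins. The lowest adjusted p by limma was 0.179 for induced against uninduced hairpins and 0.0961 for uninduced hairpins against uninduced Scrambled. Among all genes, 40 passed for induced against uninduced hairpins, 54 with the replicate block and 62 with an intensity trend. Leaving out an array gave 24 without shRNA1 with dox, 14 without shRNA1 without dox, 26 without shRNA2 with dox and 14 without shRNA2 without dox. For uninduced hairpins against uninduced Scrambled, 0 genes passed, and 17 with the replicate block. The cause of these shifts was not tested. No setting shifted the median of all genes by more than 0.0346. Without the uninduced Scrambled array the second comparison could not be fitted, and with 1 array per line and condition no array could be left out of the changes per line. Values near background limit small differences, and no gene here fell to the filter on the dimmest 25% of genes.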
